A study of Mus musculus with 6 samples.

Results

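The integrated stress response and the unfolded protein response were followed through 37 listed genes, of which 33 were measured among the 12107 genes of the deposited tables. The members were taken by symbol from a list made of an ATF4 branch (15 of 19 measured), an ER chaperone branch (14 of 14) and the 3 genes of the ER stress sensors (Atf6, Ern1 and Eif2ak3) with Xbp1, all 4 measured and kept apart as sensors and XBP1. Atf3, Nupr1, Psat1 and Slc7a3 were not analysed here. Each gene has 3 regions, so 99 of 36321 regions belong to the list.

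ChIP-seq read where RNA polymerase II (Pol II) sat on chromatin, using an antibody against the N-terminal part of its largest subunit, POLR2A (RPB1). The cells were mouse neural progenitor cells (NPCs), expanded in culture as neurospheres from ganglionic eminences at e13.5. There were 3 Armc5(-/-) (KO) and 3 wild-type (WT) libraries, numbered as replicate pairs, with the strain labelled 129 sv X CD1 while the study's methods and text name a background of CD1 and C57BL/6. ARMC5 is the substrate-recognition subunit of a ubiquitin ligase for POLR2A, and the KO lacks it in every cell, with no treatment in either group. Armc5 was not analysed here, and the KO label was thus taken as given.

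Total reads over the counted regions were 16056262 to 25199455 in KO and 14528870 to 23808344 in WT libraries. Promoters held 6.88% to 12.2% of them in KO and 6.04% to 11.2% in WT, with pair 3 lowest in both groups. Signal of Y-linked genes stood at 124 to 145 CPM (reads scaled to a common library total) in KO and at 197 and 234 CPM in WT replicates 1 and 2, but at 0.62 CPM in WT replicate 3, which stands apart from the other libraries. Of 11 NPC markers 10 were measured, all but Dlx1, and none of the 5 microglia and blood or the 3 mesenchymal markers was in the tables. Of the 7 neuronal markers 6 were measured as well, with 1 of 4 astrocyte, 2 of 5 oligodendrocyte lineage and 1 of 4 endothelial markers. Over gene bodies the oligodendrocyte lineage markers summed to 87.7 to 156 CPM in KO and 95.6 to 151 CPM in WT. The endothelial marker held 16.2 to 44.7 CPM in KO and 17.7 to 45.4 CPM in WT, and the astrocyte marker 10.3 to 13.1 and 11.2 to 12.7 CPM.

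The integrated stress response begins when kinases such as PERK (gene Eif2ak3) phosphorylate the translation factor eIF2α. General translation then falls while the mRNA of the transcription factor ATF4 is translated more, and ATF4 induces genes of amino acid synthesis and uptake, redox balance and its own shut-off. The unfolded protein response adds IRE1 (Ern1), which splices Xbp1 mRNA, and ATF6, a membrane-held transcription factor. XBP1 and ATF6 raise chaperones, disulfide exchange enzymes and degradation factors of the endoplasmic reticulum (ER). In the embryonic mouse cortex, progenitor cells are known to lower unfolded protein response activity as neurogenesis proceeds.

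The branches differ in the promoter elements through which they are known to be induced, and those elements are shown here because, among the members, each was found mainly in 1 branch, though many members held neither. RefSeq promoter windows (GRCm38.p6, 250 bases upstream to 50 downstream of the start site) were found for 33 of the 37 listed genes. The ER stress response element, read as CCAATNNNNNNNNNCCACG on either strand, was present in 7 of 13 ER chaperone genes with a window, in 0 of 17 ATF4 branch genes and in 0 of 3 sensors and XBP1. Over all 27025 genes with a window 0.137% held it, and 0.158% of the 9505 that are also in the tables. The C/EBP-ATF composite element, read as TGATGNAA on either strand, was present in 7 of 17 ATF4 branch genes and in 1 of 13 ER chaperone genes (Herpud1), against 4.51% of all genes and 2.38% of those in the tables. The unfolded protein response element TGACGTGG was in 0 of the 33 windows and in 0.714% of all. A match is a description of letters and does not show that a factor binds.
In the sequences that follow, 5′ to 3′ on the gene's strand, the capitals mark the fixed letters of the element.
Hspa5 (chr2:34772020-34772048, plus strand, element from -65 to -47): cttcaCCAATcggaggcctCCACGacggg
Calr (chr8:84847070-84847098, minus strand, -162 to -144): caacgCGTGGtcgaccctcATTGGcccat
Pdia6 (chr12:17266486-17266514, plus strand, -98 to -80): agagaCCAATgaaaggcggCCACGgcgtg
Dnajc3 (chr14:118937822-118937850, plus strand, -105 to -87): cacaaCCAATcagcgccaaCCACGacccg
Asns (chr6:7693215-7693242, minus strand, -23 to -16): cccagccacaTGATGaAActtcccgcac
Chac1 (chr2:119351039-119351066, plus strand, -193 to -186): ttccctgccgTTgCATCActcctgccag
Slc7a11 (chr3:50443662-50443689, minus strand, -66 to -59): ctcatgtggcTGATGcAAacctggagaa
Pycr1 (chr11:120643834-120643861, minus strand, -103 to -96): gccctgtgtaTGATGcAAtgcacaaggc
The first 4 carry the ER stress element, in Calr on the opposite strand, and the last 4 the composite element, in Chac1 on the opposite strand. The Slc7a11 positions count from a start site inside the gene span that is used below for its length.

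No member was called in any region at a limma adjusted p under 0.1, with the adjustment made over all 36321 regions. Among all genes 0.173% of promoters, 0.206% of gene bodies and 0.0248% of TES regions (the transcription end site and the stretch behind it) were called. Most estimates in promoters and gene bodies nevertheless lay above 0. The median log2 fold change of KO over WT was 0.15 for the 33 promoters, against 0.03 for all genes, with 26 members above 0. It was 0.04 for gene bodies, against -0.01 for all genes, with 25 members above 0, but -0.01 against -0.07 when the TMM factors came from low-signal gene bodies. In TES regions it was -0.14, against -0.08 for all genes, with 8 members above 0. The typical standard error (SE) of a member was 0.15 in promoters, 0.09 in gene bodies and 0.19 in TES regions.

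**Figure D1:**
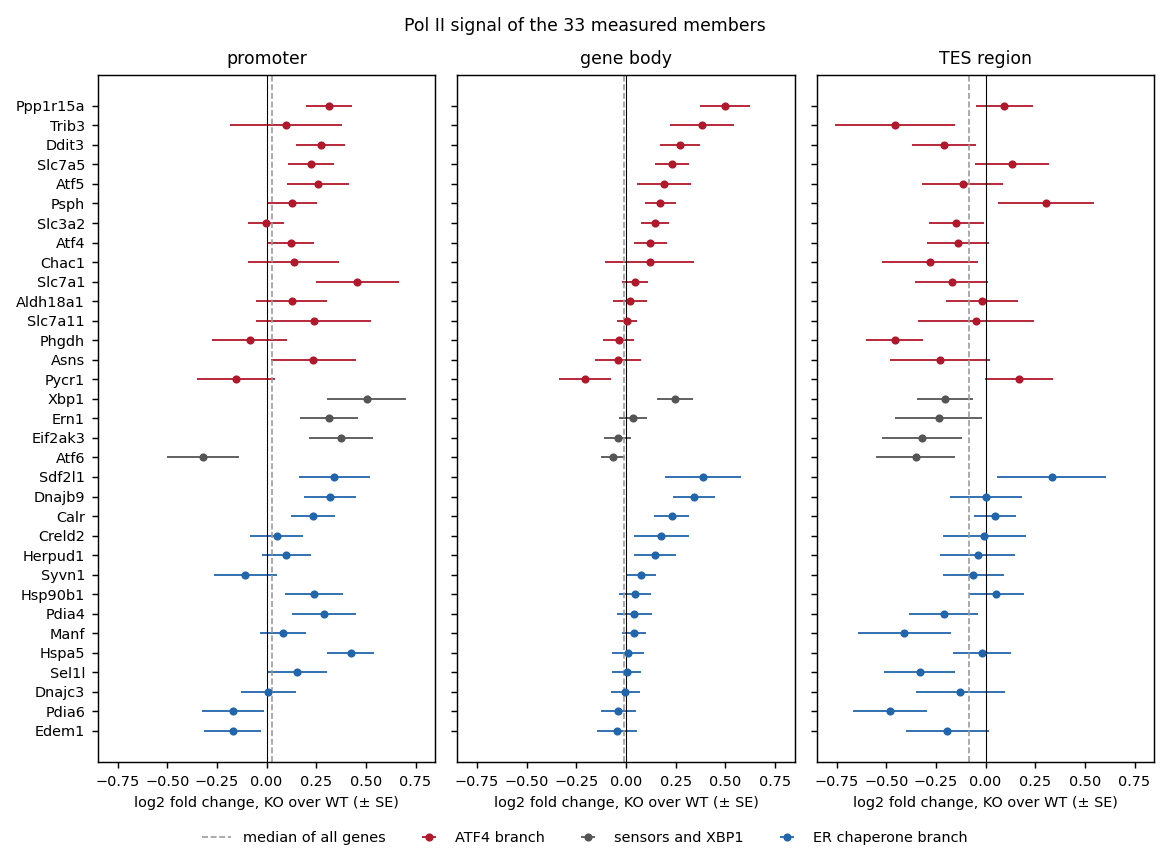
Log2 fold change of Pol II signal, KO over WT, with its SE from limma-voom (horizontal axis), for the 33 measured members (rows, ordered within each branch by the gene body value) in promoters, gene bodies and TES regions. Points lie mostly to the right of 0 in promoters (26 of 33) and gene bodies (25 of 33) and mostly to the left in TES regions (25 of 33), and the dashed line is the median of all genes.

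At an unadjusted limma p under 0.05, 7 member promoters were higher in KO (21.2% of members, against 7.55% of all promoters) and 0 were lower (2.4% of all). In gene bodies 8 members were higher (24.2%, against 4.82% of all) and 0 were lower (3.59% of all). In TES regions 0 were higher (1.4% of all) and 2 were lower (6.06%, against 4.84% of all). Signal was higher in KO in all 3 pairs for 13 promoters (39.4%, against 18% of all) and 11 gene bodies (33.3%, against 13.7% of all). In this fit the promoter and gene body shares of the list thus lie above the shares of all genes. The members were, however, chosen with earlier results of these data known. In TES regions the share at that p is near that of all genes. There 30.3% of members were lower in KO in all 3 pairs, against 20.8% of all genes. The libraries of the groups did not overlap, with KO higher, for 2 promoters (Slc7a1 and Xbp1, 2.24% of all promoters) and 2 gene bodies (Ppp1r15a and Psph, 1.5% of all). With KO lower they did not overlap for 2 TES regions (Manf and Pdia6, 3.28% of all). Without pair 3, which holds the WT library that lacks Y-linked signal, 5 promoters and 5 gene bodies were higher at that p. Of all genes 8.18% of promoters and 6.34% of gene bodies were, and the member medians were 0.17 and 0.09. Without pair 1, or any single library of pairs 1 and 3, 4 promoters were higher at that p, against 7.85% to 8.27% of all promoters. Without pair 1, pair 3 or any single library 4 to 5 gene bodies were, against 4.09% to 6.34% of all gene bodies. With the pair as a block, a library left without its partner carries no information on genotype. Leaving out 1 library thus gives nearly the estimate found without its pair and is not a separate check. Without the pair as a block, 0 members reached an unadjusted p under 0.05 in any region.

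In the ATF4 branch Ppp1r15a and Trib3, feedback regulators of the response, had the highest gene body estimates. Ppp1r15a encodes GADD34, the phosphatase subunit that reverses eIF2α phosphorylation. Its gene body (chromosome 7, 45522917 to 45526268, minus strand, GRCm38) held 18.2, 15.6 and 13.6 TMM-scaled CPM in KO replicates 1 to 3, against 11.5, 12.4 and 9.67 CPM in WT replicates 1 to 3. Every KO library was above every WT library. The log2 fold change was 0.50 ± 0.12 (SE, limma unadjusted p = 0.00144, adjusted p = 0.248), the smallest p of any member region. Its promoter held 18.6, 18.3 and 11.0 CPM in KO, against 14.5, 16.1 and 7.80 CPM in WT. The promoter was higher in KO in each pair, with overlapping groups (0.31 ± 0.12, limma unadjusted p = 0.0185, adjusted p = 0.502). Part of the gene body window, 616 bases, overlaps Tulp2 on the opposite strand, and 339 bases of the promoter window overlap Plekha4, so reads there cannot be told apart by gene.

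Trib3 encodes a pseudokinase that restrains ATF4 activity. Its gene body held 3.28, 9.16 and 8.21 CPM in KO, against 2.64, 6.45 and 6.82 CPM in WT. KO was higher in each pair, while pair 1 lay far below the others in both groups (0.38 ± 0.16, limma unadjusted p = 0.0321, adjusted p = 0.564). The Trib3 promoter was thinly covered, at 0.43, 3.17 and 1.06 CPM in KO and 0.73, 2.53 and 0.98 CPM in WT (0.10 ± 0.28). Chac1 encodes an enzyme that degrades glutathione. Its gene body held 1.98, 4.32 and 3.47 CPM in KO, against 1.07, 4.83 and 3.33 CPM in WT, and the pairs disagreed in sign (0.12 ± 0.22). The Chac1 promoter held 1.04, 4.22 and 1.42 CPM in KO and 1.12, 3.72 and 1.14 CPM in WT (0.14 ± 0.23).

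Of the transcription factors, Ddit3 encodes CHOP, an ATF4 target linked to cell death under prolonged stress. The Ddit3 gene body held 30.4, 25.8 and 20.1 CPM in KO, against 26.9, 21.9 and 13.8 CPM in WT. Each KO library exceeded its own pair's WT library although the groups overlapped (0.27 ± 0.10, limma unadjusted p = 0.0192, adjusted p = 0.506). Its promoter held 24.5, 14.7 and 7.93 CPM in KO, against 17.7, 14.3 and 6.82 CPM in WT, and most of the difference came from pair 1 (0.27 ± 0.12, limma unadjusted p = 0.0475, adjusted p = 0.602). It was 0.09 without pair 1 or either of its libraries and 0.42 without pair 2. Gm4189 overlaps 396 bases of the Ddit3 promoter window on the opposite strand. Atf4 itself had 94.5, 62.4 and 65.8 CPM over its gene body in KO, against 90.9, 62.8 and 48.3 CPM in WT. The Atf4 difference was largest in pair 3, at 0.44, against 0.06 and -0.01 in pairs 1 and 2 (0.12 ± 0.08). The Atf4 promoter held 15.6, 15.5 and 8.78 CPM in KO and 14.5, 13.9 and 8.29 CPM in WT (0.12 ± 0.12), and its known control by translation is not read by this assay. Atf5, a related factor, had 0.26 ± 0.15 in the promoter and 0.19 ± 0.14 in the gene body, where pair 2 ran the other way (-0.17). On the opposite strand Nup62 and Il4i1 each cover the whole Atf5 promoter window, and Nup62 covers 471 bases of the gene body window. Reads there cannot be told apart by gene.

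The amino acid genes of the ATF4 branch were divided. Among the transporters, Slc7a5 (LAT1, which carries large neutral amino acids) held 45.5, 43.5 and 57.3 CPM over its gene body in KO, against 34.1, 41.2 and 50.0 CPM in WT. KO was higher in each pair, by 0.41, 0.08 and 0.20 on the log2 scale (0.23 ± 0.09, limma unadjusted p = 0.0181, adjusted p = 0.5), and the estimate was 0.13 without KO or WT replicate 1. The model Gm20388 covers the whole Slc7a5 window on the opposite strand. The Slc7a5 promoter held 22.4, 13.2 and 9.70 CPM in KO and 19.0, 12.1 and 7.31 CPM in WT (0.23 ± 0.12). Its partner Slc3a2, the heavy chain of the same transporter, had 0.15 ± 0.07 in the gene body, higher in each pair, and -0.0017 ± 0.09 in the promoter. Snhg1 overlaps 295 bases of the Slc3a2 promoter window on the opposite strand.

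Slc7a1 (CAT1, for cationic amino acids) had 4.25, 5.08 and 4.32 CPM at its promoter in KO, against 2.05, 4.19 and 4.14 CPM in WT. The groups did not overlap, but the pairs differed by 1.04, 0.28 and 0.06 on the log2 scale (0.46 ± 0.21, limma unadjusted p = 0.0482, adjusted p = 0.604). Pair 1 carried most of the value, which was 0.19 without KO or WT replicate 1 and 0.20 without the pair. Its gene body, at 61.2, 68.8 and 95.2 CPM in KO and 61.5, 65.1 and 91.6 CPM in WT, had an estimate of 0.04 ± 0.07. Slc7a11 encodes the cystine carrier xCT, which feeds glutathione synthesis, and had the largest gene body signal of the list. It held 222, 372 and 574 CPM in KO, against 225, 347 and 604 CPM in WT. The groups could not be distinguished (0.00 ± 0.05, limma adjusted p = 0.99), and the spread between pairs was far larger than the difference within them. The Slc7a11 promoter held 3.10, 1.92 and 0.85 CPM in KO and 1.66, 2.57 and 0.73 CPM in WT (0.24 ± 0.29).

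Among the synthesis enzymes, Asns (asparagine synthetase) held 13.3, 17.8 and 23.5 CPM over its gene body in KO, against 11.4, 19.5 and 26.5 CPM in WT. It was higher in KO in pair 1 and lower in pairs 2 and 3 (-0.04 ± 0.12). The Asns promoter held 2.30, 3.21 and 2.34 CPM in KO and 2.15, 2.53 and 1.95 CPM in WT (0.24 ± 0.21). Psph, the last enzyme of serine synthesis, held 47.4, 41.1 and 43.0 CPM over its gene body in KO, against 40.0, 37.6 and 39.4 CPM in WT. The groups did not overlap and the difference was small (0.17 ± 0.08, limma unadjusted p = 0.0482, adjusted p = 0.604), and 346 bases of the window overlap a Cct6a transcript on the opposite strand. Phgdh, the first enzyme of the same pathway, had -0.04 ± 0.08 in the gene body. The proline synthesis genes Pycr1 and Aldh18a1 had -0.21 ± 0.13 and 0.02 ± 0.09, and Pycr1 was lower in KO in all 3 pairs.

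**Figure D2:**
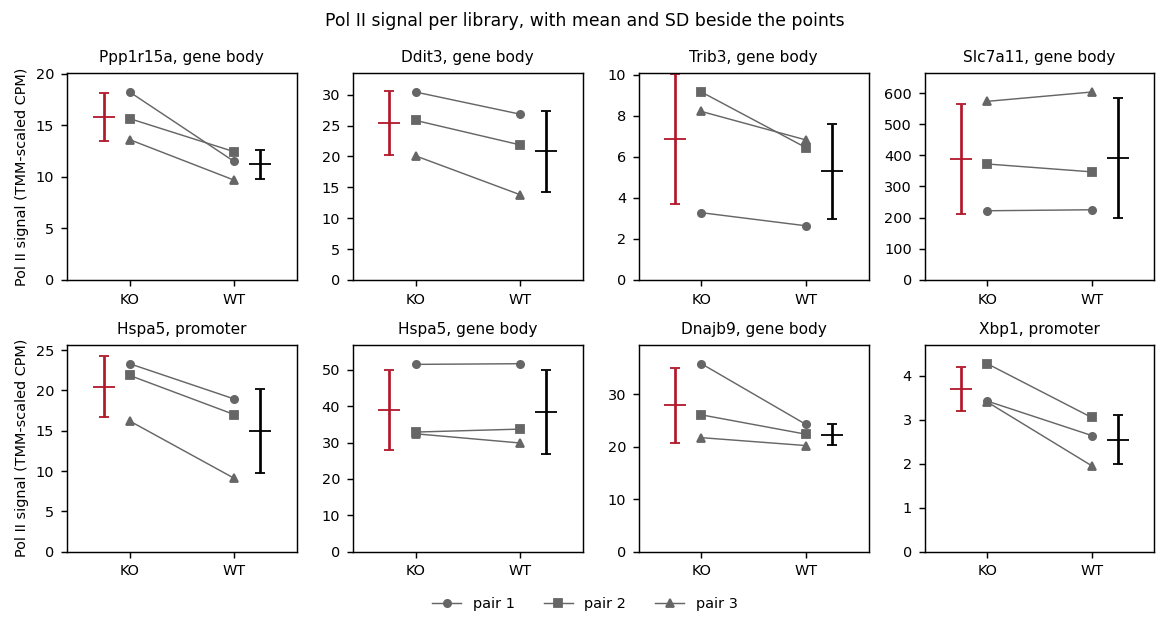
Pol II signal (TMM-scaled CPM, vertical axis from 0) of 7 members in the KO and WT library of each replicate pair, joined by lines. Bars at the sides give each group's mean and SD over its 3 libraries. KO lies above WT in each pair for the Ppp1r15a, Ddit3, Trib3 and Dnajb9 gene bodies and the Hspa5 and Xbp1 promoters, while Slc7a11 and Hspa5 gene bodies lie at nearly the same level in both groups.

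The sensors and XBP1 had the highest branch median in promoters, 0.34, and one close to 0 in gene bodies, -0.0036. Xbp1 encodes the factor produced by IRE1 splicing. Its promoter (gene on chromosome 11, 5520641 to 5525993, plus strand) held 3.42, 4.27 and 3.40 CPM in KO, against 2.64, 3.05 and 1.95 CPM in WT. Every KO library was above every WT library (0.50 ± 0.20, limma unadjusted p = 0.0241, adjusted p = 0.534), the highest promoter estimate of the list. The Xbp1 gene body held 32.6, 29.4 and 20.5 CPM in KO and 28.4, 24.5 and 16.3 CPM in WT, higher in each pair (0.25 ± 0.09, limma unadjusted p = 0.0192, adjusted p = 0.506). Splicing by IRE1 acts on the mRNA and is not read by this assay.

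Eif2ak3, the gene for PERK, had 7.63, 11.1 and 4.11 CPM at its promoter in KO, against 5.76, 7.60 and 4.39 CPM in WT. Pairs 1 and 2 were higher and pair 3 was lower (0.38 ± 0.16, limma unadjusted p = 0.0365, adjusted p = 0.581), and the estimate was 0.21 without KO replicate 2 and 0.22 without WT replicate 2. Its gene body held 50.6, 67.3 and 79.9 CPM in KO and 52.5, 68.8 and 82.5 CPM in WT (-0.04 ± 0.07). Ern1, the gene for IRE1, had 16.1, 9.06 and 5.59 CPM at its promoter in KO, against 11.0, 8.78 and 4.79 CPM in WT (0.31 ± 0.15), and most of that difference was in pair 1. The Ern1 gene body held 74.8, 80.2 and 111 CPM in KO and 68.0, 75.9 and 120 CPM in WT (0.04 ± 0.07). Atf6 ran the other way at its promoter, with 4.43, 3.40 and 1.98 CPM in KO, against 5.42, 4.04 and 2.92 CPM in WT. It was lower in each pair (-0.32 ± 0.18, limma unadjusted p = 0.103, adjusted p = 0.68). The Atf6 gene body held 106, 124 and 185 CPM in KO and 117, 122 and 195 CPM in WT (-0.07 ± 0.06).

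In the ER chaperone branch the promoter of Hspa5 had the smallest p of all member promoters. Hspa5 encodes BiP, the main HSP70 of the ER lumen, which also holds the sensors inactive. Its promoter (gene on chromosome 2, 34772090 to 34776529, plus strand), where the ER stress element printed above lies, held 23.3, 21.9 and 16.2 CPM in KO, against 18.9, 17.0 and 9.10 CPM in WT. KO was higher in each pair, by 0.30, 0.36 and 0.83 on the log2 scale, with overlapping groups (0.42 ± 0.12, limma unadjusted p = 0.00329, adjusted p = 0.327). It was called when KO replicate 1 or WT replicate 1 was left out, with a smallest adjusted p of 0.0404 in limma. In each of these fits 254 of all 12107 promoters were called higher, against 20 with all libraries. Without pair 1 as a whole the limma adjusted p was 0.101, and the Hspa5 promoter was not called. The gene body did not share the difference, with 51.5, 32.9 and 32.4 CPM in KO and 51.7, 33.7 and 29.9 CPM in WT (0.01 ± 0.08, limma adjusted p = 0.984).

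For Dnajb9 (ERdj4, a BiP cochaperone), unlike Hspa5, promoter and gene body both lay higher in every pair. Its gene body held 35.8, 26.1 and 21.7 CPM in KO, against 24.3, 22.4 and 20.2 CPM in WT (0.34 ± 0.11, limma unadjusted p = 0.00705, adjusted p = 0.415). Its promoter held 11.4, 14.3 and 7.43 CPM in KO, against 9.38, 11.5 and 5.61 CPM in WT (0.32 ± 0.13, limma unadjusted p = 0.0279, adjusted p = 0.551). The Dnajb9 gene body difference was mostly that of pair 1, at 0.56, against 0.22 in pair 2 and 0.10 in pair 3, and the estimate was 0.18 without KO or WT replicate 1. Calr encodes calreticulin, a lectin chaperone of glycoproteins. The Calr gene body held 43.7, 33.0 and 26.8 CPM in KO, against 38.4, 29.1 and 19.9 CPM in WT (0.23 ± 0.09, limma unadjusted p = 0.0216, adjusted p = 0.518). The Calr promoter held 31.2, 24.7 and 15.6 CPM in KO and 24.0, 24.8 and 11.5 CPM in WT (0.23 ± 0.11), and pair 2 showed no difference there. Sdf2l1, part of a BiP-associated chaperone complex, had 4.25, 4.17 and 6.30 CPM over its gene body in KO and 2.39, 3.84 and 5.20 CPM in WT, higher in each pair (0.39 ± 0.19). Its promoter held 5.83, 5.13 and 3.33 CPM in KO and 3.86, 4.51 and 3.01 CPM in WT (0.34 ± 0.18).

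The remaining ER genes had unadjusted limma p above 0.05 in promoters and gene bodies. All 7 chaperones and cochaperones, Hsp90b1, Dnajc3 and Manf included, had promoter estimates above 0, against 54.8% of all promoters, with a median of 0.24. Dnajc3 (0.01 ± 0.14) and Manf (0.08 ± 0.12) lay within 1 SE of 0. Of the 7, 3 were higher in KO in all 3 pairs (42.9%, against 18% of all). The 4 genes of ER-associated degradation (Herpud1, Edem1, Syvn1 and Sel1l) had a promoter median of -0.0037, with a range of -0.17 to 0.15, and a gene body median of 0.04. Of the 3 genes linked to disulfide exchange (Pdia4, Pdia6 and Creld2), Pdia6 was lowest at the promoter (-0.17 ± 0.16) and Pdia4 highest (0.29 ± 0.16). The 7 genes that hold the ER stress element had a promoter median of 0.05, with a range of -0.17 to 0.42, and a gene body median of 0.04. The 6 measured genes with the composite element had a promoter median of 0.12 and a gene body median of 0.06, with a range of -0.21 to 0.38.

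The branches were then set against each other by their medians, as a description without a test, since genes of a branch share the same 6 libraries. In promoters the ATF4 branch had a median of 0.14 and the ER chaperone branch 0.13. The difference, 0.01, had no common sign over the pairs, with -0.18, 0.00 and 0.13. In gene bodies the ATF4 branch had a median of 0.12 and the ER chaperone branch 0.04. That difference, 0.08, kept its sign in the pairs, with 0.08, 0.06 and 0.05, but with means in place of medians it was 0.03, and it lay between 0.03 and 0.14 with a pair or library left out. In TES regions the ATF4 branch had a median of -0.14 and the ER chaperone branch -0.05, a difference of -0.09 that came from pair 1 (-0.12, against 0.05 and 0.03 in pairs 2 and 3). It was -0.0013 with means, -0.01 on the deposited log2 CPM and -0.02 with the sensors counted in the branches. At an unadjusted limma p under 0.05, 5 of 15 ATF4 branch gene bodies (33.3%) and 2 of 14 ER chaperone gene bodies (14.3%) were higher in KO, against 4.82% of all. In promoters 3 of 15 (20%) and 2 of 14 (14.3%) were, against 7.55% of all. The 8 gene bodies of the whole list at that p became 2 with TMM factors from low-signal gene bodies and 0 without the replicate block.

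**Figure D3:**
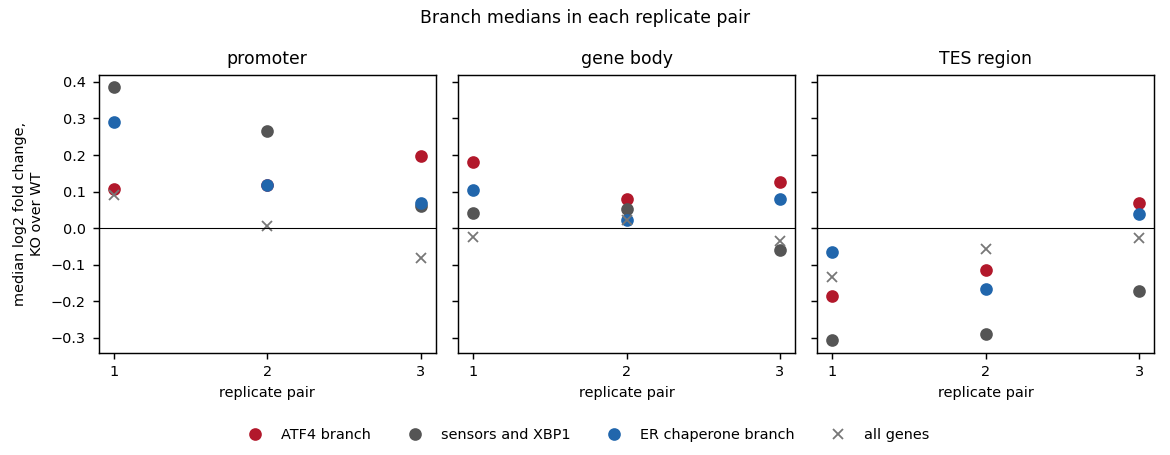
Median log2 fold change, KO over WT (vertical axis), of the ATF4 branch, the sensors and XBP1, the ER chaperone branch and all genes, within each replicate pair (horizontal axis), in promoters, gene bodies and TES regions. In gene bodies the ATF4 branch lies above the ER chaperone branch in each pair, by 0.05 to 0.08, while in promoters the order of the branches changes between pairs.

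Gene length moved with the gene body estimates. Over the 33 members the Spearman correlation of length with the gene body log2 fold change was -0.59, and over 11805 genes with a RefSeq length it was -0.30. These are descriptions across genes measured in the same libraries. Of the 16 members of up to 10 kb, 15 were above 0 and 6 reached an unadjusted p under 0.05 with KO higher, with a median of 0.18. Of all 2916 genes of that length 11.1% did, with a median of 0.06. The 12 members of 10 to 50 kb had a median of 0.01 (all genes -0.01) and 2 at that p (Slc7a5 and Psph), against 3.34% of all genes of that length. The 5 members over 50 kb (Slc7a1, Slc7a11, Atf6, Ern1 and Eif2ak3) had a median of 0.00 (all genes -0.04), with 0 at that p, against 0.821% of all such genes. The members' medians lay above those of all genes in each length class, but narrowly in the 10 to 50 kb class, where 7 of 12 members were above 0. Single members did not all do so, with Pycr1 at -0.21 in the shortest class. The classes were set after the data were seen, and the part of length in the list's values was not tested. In promoters no such order was seen, with member medians of 0.19, 0.13 and 0.31 from the short to the long class.

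**Figure D4:**
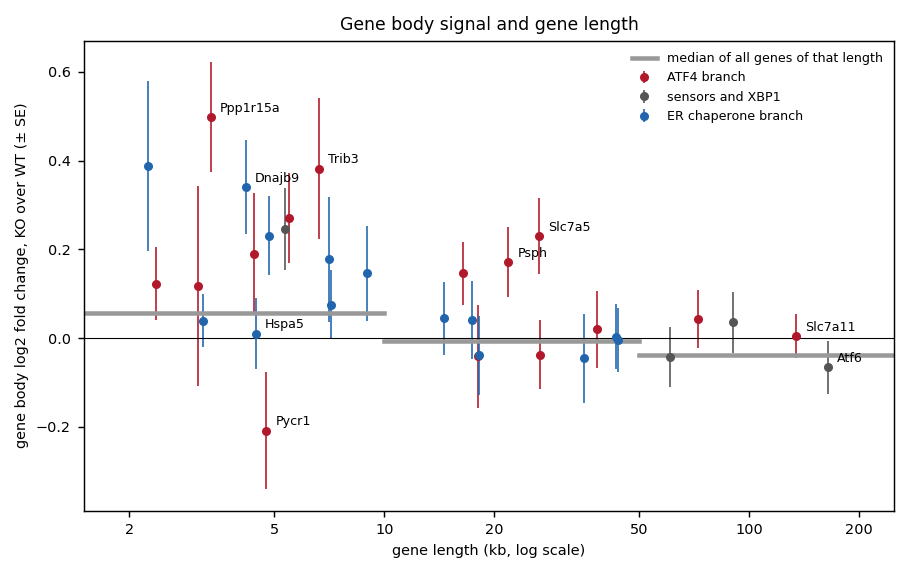
Gene body log2 fold change, KO over WT, with its SE (vertical axis), of the 33 members against RefSeq gene length (kb, log scale), coloured by branch, with the median of all genes of 3 length classes as grey lines. Members of up to 10 kb reach 0.50 (Ppp1r15a) and 15 of 16 lie above 0, while the 5 members over 50 kb lie between -0.07 and 0.04.

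Levels can be compared between genes only per length. The lengths used are RefSeq spans, while the annotation behind the counted regions is not known. Every density and rank below depends on how well they match. Per kb of gene body, Manf (42.4 ± 5.19 CPM per kb in KO and 41.1 ± 3.84 in WT, SD, n = 3 each) and Atf4 (34.3 ± 8.15 in KO and 31.2 ± 10.0 in WT) carried the most Pol II. Hspa5 followed with 9.19 ± 2.57 CPM per kb in KO and 9.07 ± 2.75 in WT, and Calr with 7.43 ± 1.84 in KO and 6.27 ± 1.99 in WT. The spreads of these neighbours over libraries overlap, but Hspa5 lay above Calr within every library. Slc7a11, first by total signal, ranked 12 by WT density (2.91 ± 1.32 CPM per kb in KO and 2.93 ± 1.44 in WT). The length used for it, 134 kb, runs from a start site at 50499087 on chromosome 3. The Slc7a11 element printed above, at 50443662 to 50443689, lies inside that span and belongs to another start site. Which start the counted regions used is not known, and the density and rank of Slc7a11 depend on it. Trib3 was lowest in WT (1.07 ± 0.49 in KO and 0.82 ± 0.36 in WT), and the genes ranked 24 to 33 lay between 0.82 and 1.22 CPM per kb in WT with overlapping spreads. Of the Manf gene body window 292 bases overlap an antisense transcript.

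The pausing index, promoter reads over gene body reads on the log2 scale, asks whether Pol II was distributed differently within a gene. Of the 33 members 0 were called at a limma adjusted p under 0.1, against 0.0331% of 12096 genes. Hspa5 was the 1 member at an unadjusted p under 0.05, against 10.7% of all genes. Its promoter to gene body ratio was 0.45, 0.66 and 0.50 in KO, against 0.37, 0.50 and 0.31 in WT. The ratio was higher in KO in each pair (log2 difference 0.47 ± 0.18, limma unadjusted p = 0.0227, adjusted p = 0.376), and without the pair as a block the unadjusted p was 0.308. Trib3 had the opposite sign, with ratios of 0.14, 0.35 and 0.13 in KO and 0.28, 0.39 and 0.15 in WT (-0.46 ± 0.21, limma unadjusted p = 0.0527, adjusted p = 0.471), on few promoter reads. The median difference was 0.00 for the members and 0.01 for all genes. The sensors and XBP1 had a median of 0.26, with 3 of 4 above 0 and Atf6 at -0.30 ± 0.24.

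In TES regions the members at an unadjusted limma p under 0.05 were Phgdh and Pdia6. Phgdh held 8.13, 5.75 and 5.88 CPM in KO, against 12.1, 7.32 and 7.72 CPM in WT, lower in each pair with overlapping groups (-0.46 ± 0.14, limma unadjusted p = 0.00722, adjusted p = 0.416). Pdia6, a disulfide isomerase gene, held 3.63, 4.08 and 3.33 CPM in KO, against 6.25, 4.55 and 4.63 CPM in WT. The groups did not overlap, and the pairs differed by -0.78, -0.16 and -0.47 (-0.48 ± 0.19, limma unadjusted p = 0.0219, adjusted p = 0.519). The Pdia6 estimate was -0.28 without KO or WT replicate 1. Almost the whole Pdia6 window, 2065 bases, also belongs to Atp6v1c2 on the opposite strand. All 4 sensors and XBP1 were lower in KO in all 3 pairs, as were 10 of the 33 members (30.3%) and 20.8% of all genes. Atf4 held 56.3, 25.5 and 29.9 CPM in KO and 68.4, 35.1 and 15.6 CPM in WT, so that pair 3 ran against pairs 1 and 2. Of the 33 members, 10 TES windows, 14 promoter windows and 14 gene body windows overlap another annotated gene, counted with RefSeq gene spans and GENCODE vM21.

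Other genes of the same pathways, taken from longer lists, gave smaller medians. Of 35 further integrated stress response genes 31 were measured. Their median was -0.01 in gene bodies and -0.0015 in promoters. At an unadjusted limma p under 0.05, 2 of their gene bodies were higher in KO (6.45%, against 4.82% of all) and 1 was lower (3.23%, against 3.59% of all). Of their promoters 0 were higher and 1 was lower (3.23%, against 2.4% of all). The leading gene bodies were Sesn2, which encodes a leucine sensor that restrains mTORC1 (0.27 ± 0.09), Mthfd2, a mitochondrial folate enzyme gene (0.23 ± 0.09), and Eif2ak4, the gene of the amino acid sensing kinase GCN2 (-0.18 ± 0.07). The leading promoters were Sars (-0.28 ± 0.12) and Tars (-0.29 ± 0.14), which encode the seryl- and threonyl-tRNA synthetases, and Xpot, the tRNA export factor gene (-0.22 ± 0.12). Of 37 further unfolded protein response genes 35 were measured, with medians of 0.02 in both gene bodies and promoters. There 2 gene bodies (5.71%, against 4.82% of all) and 4 promoters (11.4%, against 7.55% of all) were higher in KO at that p, and 0 were lower in either. They were led by P4hb (protein disulfide isomerase, 0.22 ± 0.08) and Derl3 (a degradation factor of the ER, 0.41 ± 0.15) in gene bodies, and by Hspa13 (0.72 ± 0.27), Tmbim6 (0.40 ± 0.15) and Wfs1 (0.64 ± 0.25) in promoters. None of these genes was called.

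Among the gene bodies of NPC markers 3 of the 10 measured (30%) were higher in KO at an unadjusted limma p under 0.05, against 4.82% of all gene bodies. Their list median was 0.08, and the summed level was 299 to 570 CPM in KO and 260 to 541 CPM in WT. Neuronal markers summed to 1011 to 1280 CPM in KO and 1023 to 1374 CPM in WT over gene bodies, with 1 of 6 (16.7%) higher at that p and a median of -0.02. At promoters the neuronal markers had a median of 0.33, with 5 of 6 above 0, against 54.8% of all promoters. Of them 1 was higher at that p (16.7%, against 7.55% of all), and they summed to 8.14 to 30.4 CPM in KO and 10.6 to 24.2 CPM in WT. The medians in pairs 1 to 3 were 0.14, 0.53 and -0.35, and 0 of these promoters were higher in all 3 pairs. Coverage was thin, with a lowest mean of 10.7 reads. NPC marker promoters had a median of -0.02, with 3 of 10 above 0 and 0 higher at that p, and summed to 62.1 to 155 CPM in KO and 74.1 to 147 CPM in WT. No measured marker of either list was at 0 reads, and their part in the members' values was not tested. With such bulk chromatin, fewer cells of a type and less Pol II per cell cannot be told apart.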

How the data were processed

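POLR2A ChIP-seq reads of 3 KO and 3 WT NPC libraries were counted by the authors with HOMER in promoters (400 bases before to 100 after the TSS), in gene bodies, and in TES regions (reaching 2000 bases past the TES). The deposited count table holds raw whole-number reads for 12107 genes, from which the authors had removed genes without signal in KO. The authors' log2 CPM table (TMM and voom) served as an alternative. The submitters' notes list BWA, HOMER, MACS2, Picard, Trimmomatic, bcl2fastq 2.20, edgeR and limma, with GRCm38 (mm10). Which gene annotation defined the regions was not given in the sources used here. No spike-in or input was used here, so a change shared by all genes would not be seen. Region files repeating the counts were not used.

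All 36321 regions were scaled by TMM and fitted by limma-voom (R 4.3.3, limma 3.58.1, edgeR 4.0.16) with the replicate pair as a block, two-sided, Benjamini-Hochberg over all regions, call at an adjusted p under 0.1. The study's methods describe replicate pairs, and same-numbered libraries deviated together (correlation 0.63 to 0.70 in promoters, 0.74 to 0.88 in gene bodies, 0.56 to 0.75 in TES regions). No library was a copy of another. Nothing says whether each pair came from 1 litter. With the pair as a block, the p-values measure how far the KO over WT differences disagree between these pairs, not the whole spread between libraries. The pausing index added 0.5 to each count and needed a mean of 10 reads in both regions. Alternatives included edgeR's quasi-likelihood test, DESeq2 1.42.0, other scalings and filters, and left-out libraries. The fits were tested on simulated data.

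Per-library values are given for a fixed set (Atf4, Ddit3, Asns, Trib3, Chac1, Slc7a11, Hspa5, Xbp1, Ern1, Eif2ak3, Atf6), for any called member and for the 3 members of each branch with the smallest unadjusted p in promoters and gene bodies, and for a few others chosen after their values were seen. Genes of other pathway lists are named if called or among the 3 smallest p of their list. The members and lists were chosen with earlier results of these data known. Lengths, positions and promoter sequences are from RefSeq GRCm38.p6 (Python 3.11.15, pandas 2.3.3). The densities per kb and the length classes were added after the data were seen.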

Additional observations from a re-analysis of the deposited data

How the results depend on the processing

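No member was called under any alternative with all libraries kept, by edgeR's quasi-likelihood test or by DESeq2, which gave no adjusted p to 10 promoters, 1 gene body and 19 TES regions of the list. Leaving out libraries gave 0 to 1 called promoter, Hspa5, without KO or WT replicate 1. In those 2 fits 254 of all 12107 promoters were called higher, and without the whole of pair 1 Hspa5 was not called. The 7 promoters higher in KO at an unadjusted p under 0.05 became 1 with DESeq2, against 2.47% of all promoters. They became 2 when TMM factors came from low-signal gene bodies only, against 5.34% of all. In these 2 settings the counts of the 33 members lie near the shares of all promoters. With libraries left out they became 4 to 5, against 4.56% to 8.27% of all. The 8 gene bodies became 4 (2.16% of all), 2 (2.49% of all) and 4 to 6 (4.09% to 6.34% of all) in the same settings. The 2 lower TES regions became 1 with DESeq2 (0.586% of all) and 1 to 3 with libraries left out (3.03% to 5.39% of all). Without the replicate block each of these counts was 0, as was the number of members at that p for the pausing index (1 with it), and 0 genes of the whole tables were called. The scaling on low-signal gene bodies moved the median of all gene bodies by -0.06 and that of the members to -0.01. The branch difference in gene bodies, 0.08, was 0.113 with edgeR, 0.116 with DESeq2, 0.124 with the deposited log2 CPM, 0.111 without the replicate block, 0.0266 with means and 0.0330 to 0.136 with libraries left out. That in TES regions ranged up to 0.0560 and down to -0.0776 with libraries left out, positive only without replicate 1 or either of its libraries. Over 1881 refitted member estimates 147 changed sign, in 36 member regions and in 0 of those with an unadjusted p under 0.05. At an SE near 0.15 a promoter change under 0.3 on the log2 scale is not resolved.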

Other observations

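The aminoacyl-tRNA synthetase genes, which charge tRNAs and are known targets of ATF4, were read as a family after their values had been seen. Of the 11 measured, 9 gene bodies had a log2 fold change below 0, with a median of -0.02 and a range of -0.19 to 0.03, close to the median of all gene bodies, -0.01, and 0 were at an unadjusted limma p under 0.05. At promoters 5 were above 0, and 1, Sars, was lower at that p. Over all genes 45.3% of gene bodies were above 0. Transporter genes of the ATF4 branch had 4 of 4 gene bodies above 0 with a median of 0.09, and the difference between these families was not tested.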
